A study of Rattus norvegicus with 13 samples.

Results

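The let-7 family was followed across 13 rat fat samples through 9 entries of a miRNA array: the guide strands rno-let-7a, rno-let-7b, rno-let-7c, rno-let-7d, rno-let-7e, rno-let-7f and rno-let-7i, their relative rno-miR-98, and the passenger strand rno-let-7a-1*. The rat prefix rno is left out from here on. The entries were taken by name from the 677 rat miRNAs of the array. The samples were fat of female Sprague Dawley daughters, 7 from control fathers on standard chow (9% as fat) and 6 from fathers on high-fat pellets (43% as fat, here HFD). Fathers were mated at 15 weeks of age with females on chow, the daughters of both groups ate chow after weaning, and their fat was taken at 14 weeks. The labels name no fat depot, litter or father, so daughters of 1 father could not be told from daughters of several, and the p-values measure the spread between these animals. The sources used here describe the HFD fathers as heavier and insulin resistant, and their daughters as glucose intolerant with no difference in body weight from the controls.

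miRNAs are short RNAs that guide Argonaute proteins to messenger RNAs, which are then translated less and degraded. Pairing rests mainly on the seed, the bases after the first at the 5′ end, so miRNAs with 1 seed have largely shared targets. The let-7 miRNAs rise as cells differentiate, and the RNA-binding protein LIN28 holds back their maturation in early cells. Their known targets include the chromatin protein HMGA2, which supports growth of fat cell precursors, and the receptors for insulin and IGF1. In mice, forced let-7 expression impairs glucose tolerance.

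The mature sequences are shown because the seed and the few bases that separate the members bear on which of them an array probe can tell apart. They are RefSeq's for the rat (build GRCr8), 5′ to 3′, with the seed (bases 2 to 8) in capitals, and 9 of 9 entries were matched by name.
let-7a: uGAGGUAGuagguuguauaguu
let-7b: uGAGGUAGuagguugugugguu
let-7c: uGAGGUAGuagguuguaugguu
let-7d: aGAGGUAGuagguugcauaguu
let-7e: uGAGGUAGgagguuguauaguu
let-7f: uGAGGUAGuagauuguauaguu
let-7i: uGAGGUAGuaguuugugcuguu
miR-98: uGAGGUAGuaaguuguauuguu
let-7a-1*: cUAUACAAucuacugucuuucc

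All 8 guide strands had the seed GAGGUAG, as did 9 of the 693 mature names in the RefSeq table; the ninth, let-7g, was not analysed here. Counted from base 1 at the 5′ end of let-7a, let-7c differed from it by A19G, let-7e by U9G and let-7f by G12A. A pair of changes each separated let-7b (A17G, A19G), let-7d (U1A, U16C) and miR-98 (G11A, A19U) from let-7a. let-7i differed by G12U, A17G, U18C and A19U. The passenger strand let-7a-1* has another seed, UAUACAA, and has the same 22 bases as let-7c-2-3p, so its signal cannot be assigned to 1 gene.

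In GRCr8 the members lie in several short gene clusters. The let-7a-1, let-7f-1 and let-7d genes follow each other on the + strand of chromosome 17, with their mature guide strands at chr17:16320145-16320166, chr17:16320508-16320529 and chr17:16322273-16322294. let-7c-2 (chr7:118683636-118683657) and let-7b (chr7:118684044-118684065) lie side by side on chromosome 7. let-7f-2 (chrX:24460052-24460073) and miR-98 (chrX:24460663-24460684) share a cluster on chromosome X. let-7e lies beside miR-99b and miR-125a on chromosome 1, the second let-7a gene near miR-100 on chromosome 8, and the second let-7c gene beside miR-99a on chromosome 11. let-7i (chr7:60527935-60527956, - strand) has no other miRNA gene within 10000 bases. let-7a, let-7c and let-7f come from 2 genes each with the same mature sequence, and the array reads their sum.

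All 9 entries were detected on 13 of 13 arrays, where an entry counts as detected once a share of 0.5 or more of the spots of any of its probes stands well clear of background. Each guide strand had 2 probes of 10 spots. The median coefficient of variation between spots of a probe was 2.67% to 5.53%. The resulting standard error of a level from spots alone, 0.0089 (miR-98) to 0.016 (let-7d) on the log2 scale, was well below the spread between animals of 1 group, from 0.0981 (let-7d) to 0.197 (let-7b). Both probes of a guide strand kept a nearly constant log2 distance over the arrays, with an SD from 0.0267 (let-7d) to 0.0682 (let-7c). let-7a-1* was read by 1 of its 4 probes. The other 3 stood at the floor of the scale on all arrays, so its averaged level was compressed.

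Apart from let-7a-1*, the antisense miRNAs and passenger strands of these loci that were looked up were not detected by this rule. miR-3596a, miR-3596b, miR-3596c and miR-3596d, which are reverse complements of stretches of let-7a, let-7d, let-7e and let-7f, were each detected on 0 of 13 arrays. Of 8 other let-7 passenger strands listed, 7 are on the array, and each was detected on 0 of 13 arrays by the same rule, although the scanner software gave let-7d* a total signal above its detection limit on 10 arrays. miR-98* was detected on 0 arrays.

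Each array detected 154 to 196 miRNAs, with 20% to 25.1% of its spots well above background and 0 saturated. The 7 listed miRNAs of fat cells and their precursors, such as miR-143 and miR-378, were detected on 13 of 13 arrays. Of the muscle list (5 of 5 on the array), miR-133a was detected on 5 arrays and miR-206 on 3, fewer than the 6 a tested miRNA needs. The mean log2 level of the tested ones (miR-1, miR-133b and miR-499) ran from -4.93 to 0.46 in controls and -5.06 to 0.5 in HFD. miR-1 and miR-133b were high on control 662, control 664 and HFD 629. Of the 4 listed nerve miRNAs, miR-128 was detected on 13 arrays, miR-9 on 4, miR-138 on 3 and miR-124 on 0. Of the 6 epithelial ones, miR-203 and miR-205 were detected on 13 arrays each, miR-200a on 5, miR-200b on 4, and miR-141 and miR-200c on 0. The files place the arrays on 2 slides. Slide 1 held 4 controls (622, 627, 631, 656) and 4 HFD arrays (624, 629, 660, 663), and slide 2 held 3 controls (658, 662, 664) and 2 HFD arrays (619, 620).

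The levels of the let-7 guide strands overlapped between daughters of HFD and of control fathers, and no member passed the test. Levels here are log2 of the spot signal over the 75th percentile signal of the same array, so 0 is that percentile. They are not set between different miRNAs, whose probes differ in brightness. Of the 9 members, 0 were called by limma at an adjusted p under 0.05, as were 0 of the 176 tested miRNAs (0%), of which 2 had an unadjusted p under 0.05. The median log2 difference (HFD minus control) was -0.024 over the members and 0.0028 over all tested miRNAs, with 3 members higher and 6 lower.

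let-7a, made from 2 genes and the member the others were set against above, had log2 levels of 2.32 (lowest), 2.46 (median) and 2.62 (highest) in the 7 controls and of 2.28, 2.44 and 2.6 in the 6 HFD daughters. The groups overlapped almost fully, with HFD 629 lowest and control 627 highest of all. The log2 difference was -0.009 ± 0.071 (SE), a fold of 0.994 with a 95% interval of 0.893 to 1.11 (limma adjusted p = 0.996).

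let-7f, which shares a cluster with let-7a and another with miR-98, ran from 2.46 through a median of 2.64 to 2.71 in controls. In HFD daughters it ran from 2.44 through 2.64 to 2.79, with HFD 624 highest and HFD 629 lowest. The difference was 0.031 ± 0.064 (SE), 1.02-fold with an interval of 0.928 to 1.13 (limma adjusted p = 0.983). let-7d, from the same cluster as let-7a-1, ran from 0.39 through 0.51 to 0.65 in controls and from 0.37 through 0.46 to 0.57 in HFD. Its spread between animals was the narrowest of the guide strands, and the fold was 0.979 with an interval of 0.9 to 1.07.

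let-7b and let-7c lie side by side in the genome and both carry A19G. let-7b ran from 1.01 (control 658) through 1.3 to 1.58 (control 627) in controls and from 1.1 (HFD 629) through 1.31 to 1.56 (HFD 620) in HFD. It had the widest spread of the members, a range of 1.48-fold over the 13 arrays, and a difference of 0.03 ± 0.1 (SE), 1.02-fold with an interval of 0.872 to 1.2. let-7c ran from 1.72 through 1.89 to 2.06 in controls and from 1.72 through 1.84 to 2.06 in HFD, the same ends in both groups. Its difference was -0.026 ± 0.075 (SE), 0.982-fold with an interval of 0.878 to 1.1.

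let-7e, from the cluster with miR-99b and miR-125a, ran from -0.95 through -0.69 to -0.55 in controls and from -0.95 through -0.7 to -0.59 in HFD. The muscle-rich arrays control 662 and HFD 629 shared its lowest value, while control 664, also muscle-rich, stood at -0.7, near the median. Its fold was 0.971 with an interval of 0.869 to 1.09. let-7i, the member alone at its locus, ran from 0.81 through 0.99 to 1.24 in controls and from 0.9 through 0.98 to 1.08 in HFD. All 6 HFD values lay inside the control range. let-7i had the lowest p of the members, with a difference of -0.055 ± 0.072 (SE), 0.963-fold with an interval of 0.864 to 1.07 (limma unadjusted p = 0.46, adjusted p = 0.976).

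miR-98 ran from -2.02 through -1.84 to -1.65 in controls and from -2.04 through -1.84 to -1.72 in HFD. The HFD arrays split into 619, 620 and 624 at -1.72 and 629, 660 and 663 from -2.04 to -1.96, while the controls spread evenly between their ends. The difference was -0.024 ± 0.077 (SE), 0.983-fold with an interval of 0.876 to 1.1. The passenger strand let-7a-1* ran from -5.46 to -5.35 in controls and from -5.44 to -5.35 in HFD, near the floor of -5.67. Its only detected probe stood at a mean of -4.59 in both groups, a difference of 0.00676. In each of the 9 members, 3 of 6 HFD arrays lay above the control mean. The intervals of all 8 guide strands lay between 0.864-fold and 1.2-fold, and differences inside such intervals could not be told from 0 with 7 and 6 animals. In bulk tissue, fewer cells of a type and less RNA per cell cannot be told apart.

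**Figure D1:**
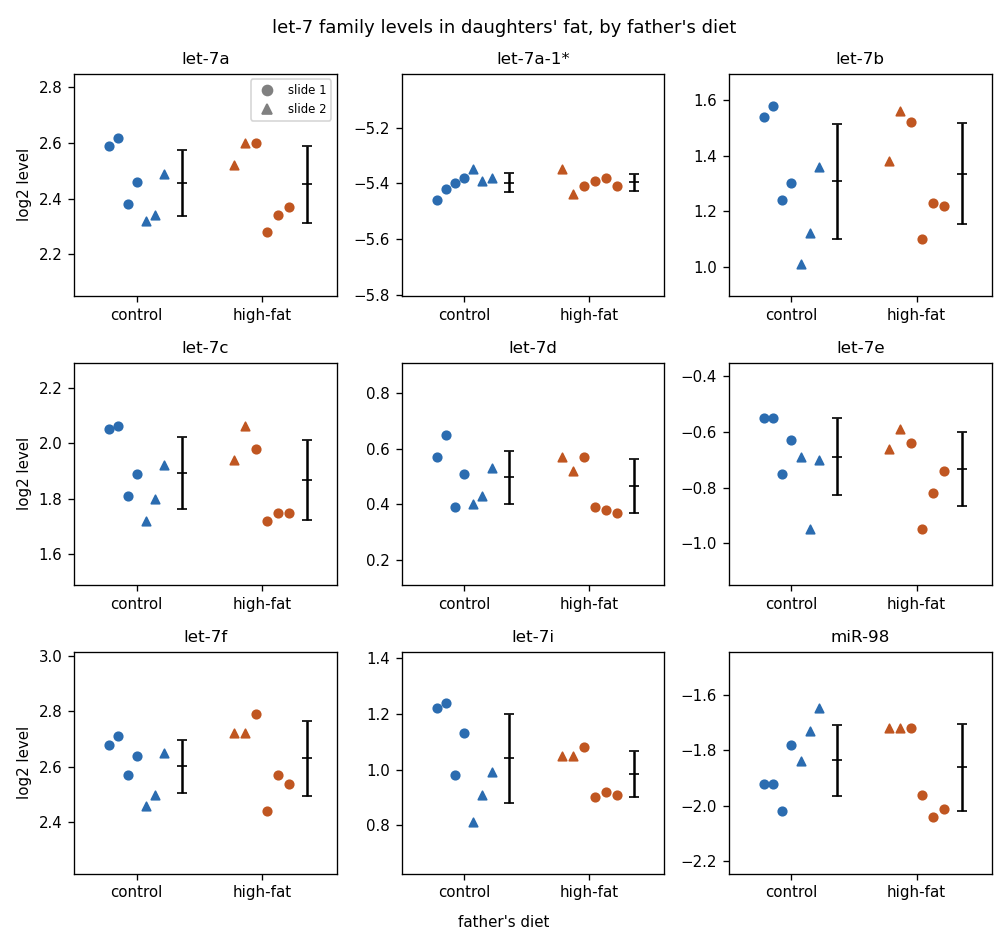
Log2 level of each let-7 member (signal over the array's 75th percentile) by the father's diet, 1 panel per member with its own axis of equal length; circles are slide 1, triangles slide 2, and bars are the mean ± SD of 7 control and 6 HFD arrays. The groups overlapped in every panel, let-7b spread widest, and let-7a-1* lay near the floor.

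A pair of members can be set against each other on the same array, where the scaling of arrays cancels. The difference between 2 members was tested between the diets for all 36 pairs (exact permutation test over all 1716 splits, two-sided, smallest possible p = 0.000583), and 0 pairs passed after adjustment over the 15400 pairs of all tested miRNAs, of which 0 passed (0%). The lowest p belonged to let-7f minus let-7i, whose mean was 1.56 ± 0.082 (SD) over the 7 controls and 1.65 ± 0.059 (SD) over the 6 HFD arrays. It was above the control mean in 5 of 6 HFD arrays (exact permutation p = 0.0594, adjusted p = 0.993).

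The slide on which an array lay was set beside the levels next. With diet in the model, 0 members were called between slides, as were 0 of 176 miRNAs (0%), of which 22 had an unadjusted p under 0.05. On the main scaling miR-98 had the widest gap of the members: its mean was -1.92 on slide 1 and -1.73 on slide 2, a log2 difference of 0.19 ± 0.061 (SE, limma unadjusted p = 0.0102, adjusted p = 0.229). All 5 arrays of slide 2 had a miR-98 level from -1.84 to -1.65, while 6 of the 8 on slide 1 lay from -2.04 to -1.92; the other two were control 656 at -1.78 and HFD 624 at -1.72. The other members differed between slides by -0.091 (let-7i) to 0.022 (let-7a-1*). Under the other scalings the miR-98 difference was no larger than its SE, at 0.038 ± 0.068 with quantile normalization, 0.044 ± 0.095 with the percentile over all probes and 0.099 ± 0.13 with the unscaled deposited table. let-7i stood at -0.14 ± 0.078, -0.23 ± 0.12 and -0.19 ± 0.094 in the same settings, so which member differed most between slides depended on the scaling.

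The diet difference of the let-7 guide strands took opposite signs on the slides. On slide 1 all 8 guide strands were lower in HFD, by a median of -0.13 and at most by -0.19 (let-7i), where 81 of 176 tested miRNAs were higher and 95 lower. On slide 2 all 8 were higher, by a median of 0.17 and by up to 0.31 (let-7b), where 93 were higher and 83 lower. In each slide 0 members were called (0 of 176 miRNAs on either, 0%, with 17 at an unadjusted p under 0.05 on both). let-7a differed by -0.12 on slide 1 and 0.17 on slide 2, let-7c by -0.15 and 0.19, let-7e by -0.16 and 0.16, let-7d by -0.1 and 0.094, let-7f by -0.062 and 0.19, and miR-98 by -0.022 and 0.02.

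The test of the difference between slides itself, the limma interaction of diet and slide, called 0 members, where 1 of 176 miRNAs passed (0.568%) and 34 had an unadjusted p under 0.05. The lowest p among the members was that of let-7i, with an interaction of 0.34 ± 0.11 (SE, unadjusted p = 0.0125, adjusted p = 0.217). let-7b stood at 0.46 ± 0.19, let-7c at 0.34 ± 0.13 and let-7e at 0.32 ± 0.13, all at an adjusted p of 0.226, and miR-98 at 0.042 ± 0.13 (adjusted p = 0.857). The median interaction was 0.31 over the guide strands and 0.025 over all tested miRNAs.

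Other properties of the arrays changed sides with the slides too. On slide 2 all 3 controls came from the upper range of animal numbers and both HFD arrays from the lower range, so diet and number range cannot be told apart there, nor fully in the interaction. The red cell list mean was higher in HFD on slide 1 (-1.88 to -0.66 against -2.55 to -2.04) and lower in HFD on slide 2 (-1.8 and -1.76 against -1.21 to -1.1). Its part in the let-7 differences was not tested. The muscle-rich arrays were HFD 629 on slide 1 and controls 662 and 664 on slide 2. Without these 3, which leaves 1 control on slide 2 whose spread is taken from the other groups, the interaction was above 0 for 8 of 8 guide strands, with a median of 0.3 against 0.049 over all tested miRNAs. The arrays left still differed in muscle miRNAs. The mean of miR-1 and miR-133b was -2.4 on control 658, -1.44 on HFD 619 and -4.52 on HFD 620, all on slide 2. On the slide 1 arrays left it ran from -5.31 to -4.37. 0 of the guide strands passed in that fit (limma adjusted p from 0.121 to 0.681), where 18 of 176 miRNAs did (10.2%).

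Single arrays of slide 2 showed the separation. let-7i stood at 1.05 on both HFD arrays and at 0.81, 0.91 and 0.99 on controls 658, 662 and 664. let-7b stood at 1.38 (HFD 619) and 1.56 (HFD 620) against 1.01, 1.12 and 1.36 on the same controls. Both HFD arrays lay above all 3 controls for 6 of the 8 guide strands, all but let-7d and miR-98. So did they for 40 of the 176 tested miRNAs (22.7%). On slide 1 this held for 0 of 8 guide strands and 6 of 176 miRNAs (3.41%), and over all arrays for 0 of 176 (0%).

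The sign of this slide pattern depended on the scaling. The 75th percentile signal of the slide 2 arrays was 1696 and 1653 on the HFD arrays and 2007, 2136 and 1923 on the controls, and a scaled level is divided by it. In the deposited table, which has no scaling between arrays, the interaction was below 0 for all 8 guide strands, from -0.44 (miR-98) to -0.026 (let-7b), with adjusted p from 0.28 to 0.915. There both HFD arrays of slide 2 lay below all 3 controls for 5 of 8 guide strands, and for 81 of the 166 miRNAs with a value on every array (48.8%). The median interaction over all tested miRNAs was then -0.43, and 7 of 8 guide strands lay above it. With quantile normalization the interaction was above 0 for 8 of 8, with a median of 0.38 against 0.13 over all tested miRNAs, and with the percentile over all probes 0.53 against 0.19. In all 4 settings the guide strands lay above the median interaction of all tested miRNAs, except for miR-98 in the deposited table. Setting the deposited values against their median itself acts as a scaling. Most guide strands varied together over the arrays, so these counts are not of 8 independent values, and no guide strand passed in any of these settings.

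**Figure D2:**
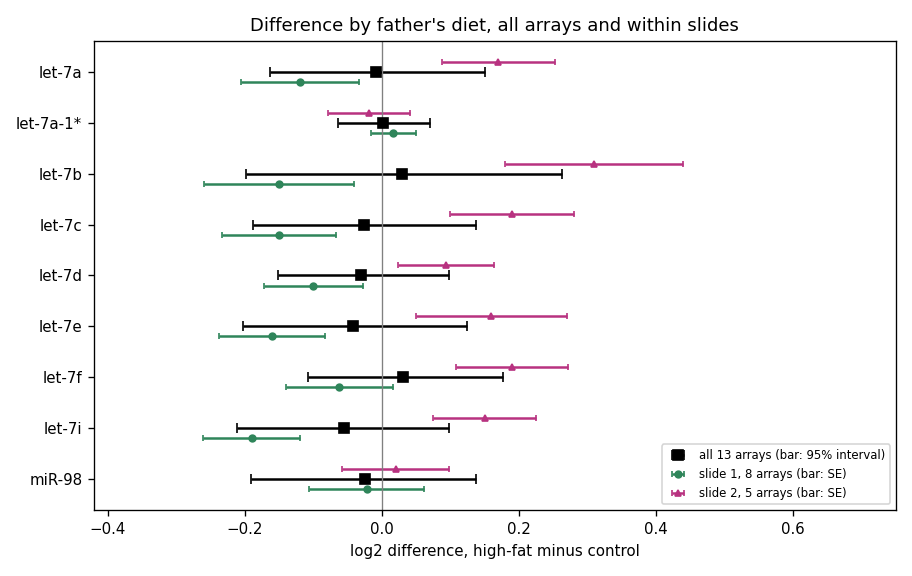
Log2 difference by the father's diet (HFD minus control) of each let-7 member, over all 13 arrays (squares, bars 95% interval) and within slide 1 (circles, 8 arrays) and slide 2 (triangles, 5 arrays; bars SE). All intervals over 13 arrays span 0; the slide values lie on opposite sides for the 8 guide strands, from -0.19 to -0.022 on slide 1 and from 0.02 to 0.31 on slide 2.

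From array to array, the let-7 guide strands other than miR-98 varied together. Each array held 1 animal, and all scaled levels of an array share 1 divisor, so variation of animals and of arrays cannot be told apart here. Their 21 pairs had a median Pearson r of 0.871 over 13 arrays, from 0.74 (let-7e with let-7i) to 0.978 (let-7a with let-7c), while the median over all 15400 pairs of tested miRNAs was 0.0295. By a permutation test adjusted over all 15400 pairs, 15 of the 36 member pairs passed with r above 0, all 15 among these 21, where 158 of 15400 did (1.03%). By Spearman's rho 10 passed. With r below 0, 0 member pairs passed, where 15 of 15400 did (0.0974%). let-7a with let-7c had r = 0.978 and rho = 0.962 (permutation p = 1e-05, the smallest the resamples can give, adjusted p = 0.0055), and r = 0.972 without HFD 629 and control 627, the arrays farthest from the median of let-7a.

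let-7a with let-7b had r = 0.966 and rho = 0.962 (permutation p = 1e-05, adjusted p = 0.0055; r = 0.959 without the same arrays). let-7b with let-7c, side by side in the genome, had r = 0.954 and rho = 0.973. let-7a with let-7f had r = 0.938, and let-7a with let-7d r = 0.926, both from the chromosome 17 cluster. let-7e was the loosest of the 7: of its 6 pairs within them, only that with let-7a (r = 0.85, adjusted p = 0.0145) passed, and the others ran from 0.74 to 0.783. Without the 2 arrays farthest from the median, the 21 values of r ran from 0.617 to 0.972, and with the diet group means removed their median was 0.884. On slide 1 alone (8 arrays) it was 0.914; slide 2 held too few arrays for a value.

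miR-98 covaried less with the rest. Its 7 pairs with the other guide strands had a median r of 0.421, from 0.143 (let-7i) to 0.503 (let-7d), and 0 of 7 passed. let-7f, whose second gene shares the chromosome X cluster with miR-98, had r = 0.445 with it (permutation p = 0.126, adjusted p = 0.469), and r = 0.703 on slide 1. On slide 1 the median of the 7 pairs was 0.566. In the deposited table it was 0.676, from 0.341 to 0.799. The 21 guide pairs without miR-98 had a median of 0.862 there, and all pairs of miRNAs 0.409. The gap between miR-98 and the rest was thus narrower without scaling. The passenger strand let-7a-1* had a median r of -0.498 with the guide strands on the scaled levels and of 0.607 in the deposited table, so its direction depended on the scaling; near the floor only 1 probe carries it.

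The covariation was also present without scaling, where all miRNAs of an array share its brightness. In the deposited table the 28 pairs of guide strands had a median r of 0.807, from 0.341 to 0.975, against a median of 0.409 over all pairs of 166 miRNAs with a value on every array. On scaled levels the same 28 pairs had a median of 0.846. let-7b with miR-98 had the lowest value in the deposited table, and let-7a with let-7c the highest.

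**Figure D3:**
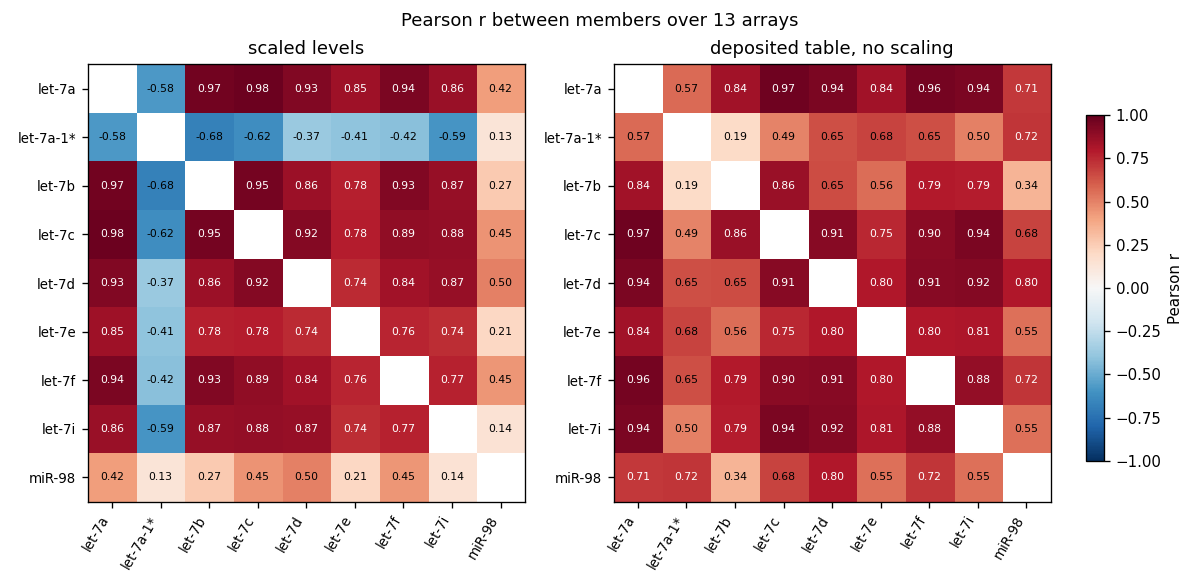
Pearson r over 13 arrays for each pair of let-7 members, on scaled levels (left) and in the deposited table without scaling (right); colour and number give r from -1 to 1. The 7 guide strands other than miR-98 form a block from 0.74 to 0.98 on the left, miR-98 is paler, and let-7a-1* changes sign between the panels against all guide strands but miR-98.

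The pairs with 1 differing base had the highest median r on scaled levels, with no steady order beyond 2 bases. This is a description over pairs that share members and arrays. Among the 21 pairs without miR-98, the 4 pairs with 1 differing base had a median r of 0.946, the 5 with 2 had 0.885, the 6 with 3 had 0.857 and the 4 with 4 had 0.861. The single pairs with 5 and 6 differing bases stood at 0.74 (let-7e with let-7i) and 0.871 (let-7d with let-7i). In the deposited table the medians for 1 to 6 differing bases were 0.909, 0.836, 0.795, 0.909, 0.812 and 0.918, and that order was absent. miR-98 differs from let-7a by 2 bases, like let-7b and let-7d, and on scaled levels its r with let-7a was 0.421 against 0.966 and 0.926 for those. In the deposited table it was 0.706 against 0.836 and 0.944, a narrower gap. Again without miR-98, the 4 pairs from 1 gene cluster had a median r of 0.932 and the 17 others 0.865, and on slide 1 alone 0.938 and 0.914. The cluster pair left out, let-7f with miR-98, had r = 0.445. let-7a with let-7f and let-7b with let-7c are cluster pairs that also differ by 1 base. Gene cluster and closeness of sequence can therefore not be fully told apart. The closest sequences are also the ones whose probes could most readily read each other's RNA, and the part of such cross-hybridization was not tested.

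**Figure D4:**
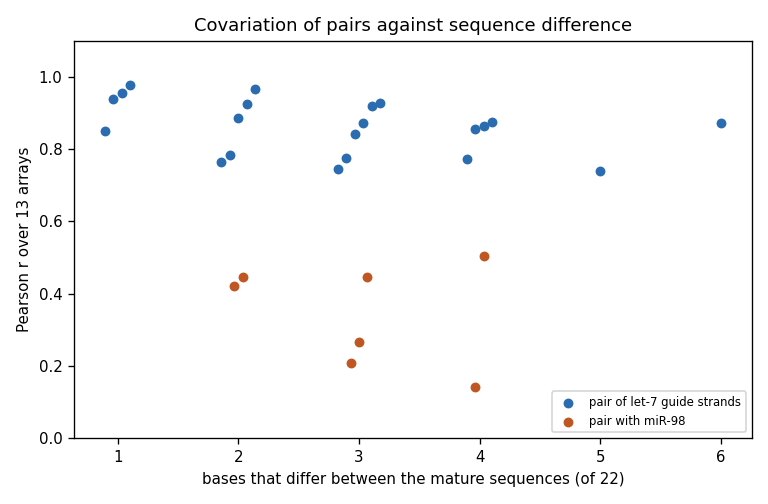
Pearson r over 13 arrays of each of the 28 pairs of let-7 guide strands (y axis) against the number of bases that differ between the mature sequences of 22 bases (x axis, points spread sideways for view). On these scaled levels, pairs of let-7 strands run from 0.74 to 0.978. The 7 pairs with miR-98 (orange) lie lowest, from 0.143 to 0.503.

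Over the arrays, the scaled levels of most let-7 members were lower where the array was brighter. Against log2 of the 75th percentile signal, 6 of 9 members had a negative correlation that passed (permutation test adjusted over 176 miRNAs), where 10 of 176 did (5.68%) and the median r over all was -0.143. let-7a had r = -0.852 and rho = -0.852 (permutation, adjusted p = 0.0194 and 0.0428), and r = -0.783 without control 627 and HFD 629. let-7c stood at -0.82, let-7e at -0.798, let-7d at -0.789, let-7b at -0.779 and let-7f at -0.772. By Spearman's rho let-7e did not pass (adjusted p = 0.0579). let-7i (r = -0.622, adjusted p = 0.205) and miR-98 (r = -0.371, adjusted p = 0.515) did not pass by either.

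The percentile is the divisor of the scaled level, so the pair is coupled by construction. Without scaling the correlation with the percentile was positive for every member, from 0.443 (let-7b) to 0.893 (let-7d). The percentile spanned 0.72 on the log2 scale, and the unscaled log2 signals of let-7a, let-7c, let-7e, let-7b and let-7f spanned 0.4, 0.41, 0.44, 0.45 and 0.47, less than the percentile did. miR-98 spanned 0.73. HFD 629, the brightest array (75th percentile 2540), had the highest unscaled let-7a signal (13.96) and the lowest scaled level (2.28). Control 627, the dimmest (1546), had the lowest unscaled signal (13.56) and the highest scaled level (2.62). HFD 629 was also rich in muscle miRNAs. Without the 3 muscle-rich arrays let-7a had r = -0.802 with the percentile over 10 arrays, and on slide 1 it had r = -0.885.

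**Figure D5:**
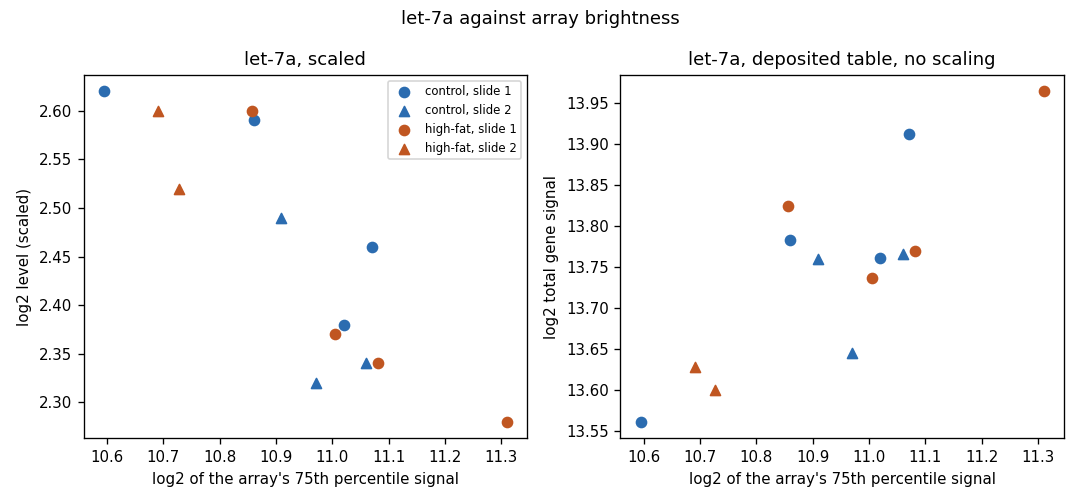
let-7a on 13 arrays against log2 of the array's 75th percentile signal, as scaled log2 level (left) and as log2 total gene signal of the deposited table (right); colours are diet groups and symbols slides. The scaled level falls from 2.62 to 2.28 as brightness rises (r = -0.852), and the unscaled signal rises from 13.56 to 13.96 (r = 0.819).

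Among the 167 tested miRNAs outside the family, those whose level over the 13 arrays was most like the mean of the guide strands, with diet means removed, were miR-192 (r = 0.884), miR-151 (0.804), miR-103 (0.804), miR-107 (0.786) and miR-195 (0.774). miR-192 lay at or near the floor and was detected on 10 arrays, and in the deposited table its r was -0.0179. miR-151 stood at 0.901 there and ranked 4 of the non-members. miR-107 stood at 0.832 (rank 20), miR-103 at 0.684 (rank 57) and miR-195 at 0.298 (rank 119). At the other end on scaled levels lay miR-144 (r = -0.819), miR-144* (-0.767), miR-99a* (-0.754), miR-451 (-0.726) and miR-33 (-0.626). These were named after their values were seen. miR-144, miR-144* and miR-451 are on the red cell list, while miR-99a* and miR-33 are not. In the deposited table miR-144 stood at 0.392, miR-451 at 0.458, miR-99a* at 0.717 (rank 46, above miR-103) and miR-33 at 0.683. The red cell list, 3 of 4 of whose members are on the array, had a mean log2 level from -2.55 to -1.1 in controls and -1.88 to -0.66 in HFD; its part in the let-7 levels was not tested.

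The miRNAs that share gene clusters with let-7, or are close relatives of those that do, were set beside it. 5 of 5 were tested and 0 called by limma: miR-99a, beside let-7c-1, differed by -0.084 ± 0.061 (SE), miR-99b by -0.14 ± 0.094, miR-100 by -0.097 ± 0.071, miR-125a-5p by -0.018 ± 0.088 and miR-125b-5p by -0.072 ± 0.06, with adjusted p from 0.965 to 0.987. Their median was -0.084, against 0.0028 over all tested miRNAs, and all 5 were lower. Over the arrays miR-125a-5p had r = 0.673 with the mean of the guide strands and miR-99b 0.411, both from the let-7e cluster. Among the 167 tested miRNAs outside the family they ranked only 16 and 51. That mean covers all guide strands, and likeness to let-7e alone was not computed. Whether the likeness is particular to the cluster can therefore not be told. miR-100 (0.0511), miR-99a (0.0886) and miR-125b-5p (0.114) had almost none. Of 5 listed miRNAs that act on LIN28 or beside let-7, 2 were tested and 0 called.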

How the data were processed

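Total RNA of fat was extracted with a miRNeasy kit, 100 ng was labelled with Cy3 and hybridised to 13 Agilent 1-colour rat miRNA arrays, per the labels' protocols. The authors' deposited scanner files hold intensity on a linear scale, background-subtracted and not normalized between arrays, read with Agilent Feature Extraction 10.7.3.1, per the file headers. The deposited value table holds log2 of the total gene signal, with no normalization between arrays: 26 of its 2569 values differed from the scanner files by over 2e-04, and its column medians ran from 6.95 to 7.77. These comparisons gave its scale and showed that it was not centred. RMA and Partek appear in the submitters' processing notes with no stated use.

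For each probe the mean of its unflagged spots was scaled to the 75th percentile of 260 probes detected on every array. Scaled values under 0.0197 were set to that floor (log2 -5.67), and log2 values were averaged over the probes of a miRNA. The 176 miRNAs detected on at least 6 arrays were fitted with limma 3.58.1 in R 4.3.3 (Benjamini-Hochberg, threshold 0.05). The fit was tested on simulated data. Slides were read from the file headers. Correlations used 100000 permutations (SciPy 1.17.1). The members and lists were chosen with earlier results of these data known. All 9 members are named; other miRNAs were named as the 5 most like the guide mean, as members of the neighbour list, as strands of the let-7 loci and as markers on listed cell types. miR-144, miR-144*, miR-99a*, miR-451 and miR-33 were named in the likeness comparison after their values were seen. A first run adjusted pair tests over the members' pairs alone and tested the members' mean against array brightness. After its results were seen, these were replaced by tests adjusted over all 15400 pairs, and per member over all 176 miRNAs. Alternatives changed scaling, background, floor, filter, probe rule, slide, animal number range, array weights and the arrays used. The planned normexp alternative used median spot signals, because the files carry no mean signal.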

Additional observations from a re-analysis of the deposited data

How the results depend on the processing

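With 7 and 6 arrays and 176 miRNAs, 0 let-7 members were called for diet under all 16 alternatives and when each array was left out. 0 were also called for the slide difference in 3 alternatives and for the interaction in 4 (1 of them, without the muscle-rich arrays, added after seeing the data), and 0 within-array pairs were. The median r of guide pairs was 0.804 to 0.946 over its 4 alternatives. No paired analysis was possible because no animal number occurs in both groups. Signs of diet and slide differences this near 0 turned often. The interaction also turned for all 8 guide strands with the deposited table, at values not near 0 for most, such as let-7a from 0.29 to -0.18. The cause of these turns was not tested.

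The median diet difference of the members was 0.16 within slide 2, and -0.049 to 0.0037 when 1 array was left out. Within slide 2, the diet difference was 0.17 for let-7a, -0.019 for let-7a-1*, 0.19 for let-7c, 0.094 for let-7d, 0.16 for let-7e, 0.15 for let-7i and 0.02 for miR-98. Within slide 1 it was -0.15 for let-7b and -0.062 for let-7f. Other turned diet differences were let-7a-1* at -0.0026 with the percentile over all probes, let-7a at 0.0023 and let-7a-1* at -0.026 with normexp (an alternative set after seeing the files), let-7b at -0.015 and let-7f at -0.013 with the total gene signal, and let-7a at 0.012, let-7c at 0.001 and miR-98 at 0.0005 with the deposited table. let-7b stood at -0.022 with the number range as a block. With array weights let-7b stood at -0.039 and miR-98 at 0.013, and without the 3 muscle-rich arrays let-7a at 0.0084 and miR-98 at 0.053.

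Leaving out 1 array moved the diet difference from -0.039 to 0.026 for let-7a, -0.009 to 0.011 for let-7a-1*, -0.02 to 0.077 for let-7b, -0.065 to 0.0038 for let-7c, -0.085 to 0.0013 for let-7e, -0.0016 to 0.07 for let-7f and -0.054 to 0.011 for miR-98. It was -0.051 to -0.004 for let-7d and -0.093 to -0.022 for let-7i, which kept their sign.

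The slide difference turned for let-7a-1* (-0.01), let-7c (-0.011) and let-7d (-0.018) with quantile normalization, for let-7a-1* (-0.014), let-7c (-0.13) and let-7d (-0.14) with the percentile over all probes, and for let-7c (-0.1) and let-7d (-0.097) with the deposited table. With 1 array left out it ran from -0.051 to 0.031 for let-7a, -0.14 to 0.013 for let-7b, -0.048 to 0.057 for let-7c, -0.025 to 0.034 for let-7d, -0.07 to 0.042 for let-7e and -0.035 to 0.031 for let-7f. The interaction turned for let-7a-1* with quantile normalization (0.0076) and the percentile over all probes (0.019). With the deposited table it was -0.18 for let-7a, -0.026 for let-7b, -0.13 for let-7c, -0.28 for let-7d, -0.16 for let-7e, -0.21 for let-7f, -0.15 for let-7i and -0.44 for miR-98. With 1 array left out it ran from -0.081 to 0.0097 for let-7a-1* and -0.0064 to 0.11 for miR-98.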
